A study of Zea mays with 18 samples.

Results

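The 4 transcripts described here encode regulators of transcription: GRMZM2G162739_T01 a NAC protein, GRMZM2G011598_T01 a homologue of NAC47, GRMZM2G134279_T01 a homologue of MYB112 and AC234521.1_FGT006 a TCP protein. They are 4 of the 39372 transcripts that the array carries, each with 1 probe, and they were chosen because the study names them among the transcripts modulated after 4 d of growth without N, the first and the third in both lines and the other two in Lo5 only. The 4 d arrays against the 0 d arrays therefore chose them, in T250 as well as in Lo5, and the values of that comparison are given as a description without a test. The choice did not use the 1 d arrays. It did use the 0 d arrays, on which the first-day change and the comparison of the lines at 0 d also rest, so neither is independent of it. A member chosen as higher at 4 d is favoured to be low at 0 d, and a member chosen as lower to be high. Only the lines at 1 d are compared on arrays that took no part.

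Roots of 2 maize inbred lines, the high NUE (N use efficiency) line Lo5 and the low NUE line T250, were sampled after 0, 1 and 4 d in a nutrient solution without N. All plants, the 0 d group included, had first stood in a calcium sulfate solution, and no array of plants supplied with N at 1 d or 4 d was analysed here, so time without N and growth cannot be told apart. Each sample pooled the roots of 3 seedlings, 3 growth experiments gave 3 biological replicates for each of the 6 groups, and each of the 18 samples was hybridized in 1 colour on its own array. In such whole roots, fewer cells of a type and less RNA per cell cannot be told apart.

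NAC, MYB and TCP proteins are 3 families of transcription factors that bind DNA through a domain typical of each. NAC proteins (named after NAM, ATAF and CUC) act in meristems, lateral roots, senescence and responses to stress, and in Arabidopsis NAC47 takes part in the ethylene response of flooded plants. Many plant MYB proteins steer the synthesis of phenylpropanoids, and in Arabidopsis MYB112 promotes anthocyanin formation. TCP proteins control cell proliferation and growth, and in Arabidopsis TCP20 takes part in nitrate signalling and in the foraging of lateral roots for nitrate.

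The level of a transcript is the log2 of its background-corrected intensity minus the log2 of the 75th percentile of all non-control probes of the same array, so a level of 0 is as bright as that percentile. An array had between 28868 and 32446 probes well above background, and none of its spots was saturated. Spots that the scanner software marked as non-uniform, between 4.12% and 12.3% per array, were left out. For the MYB112 homologue 8 of its 9 Lo5 spots and 2 of its 9 T250 spots carry that mark, and its values are given with marked spots kept. A tested difference was called where limma's adjusted p (Benjamini-Hochberg, over all probes tested) was 0.05 or less and the sizes differed by 1 log2 unit or more.

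One array goes against its label. An index of line identity was built from the 2306 transcripts whose 0 d means lay 3 log2 units or more apart in the lines, with T250 at 0 and Lo5 at 1. The index of the array labelled Lo5 1 d replicate 3 was 0.0960, within the span of the 9 T250 arrays (-0.0281 to 0.145) and far from the other 8 Lo5 arrays (0.934 to 1.03). The array stays in its labelled group here, and the members' results that rest on it are also given without it. With 3 arrays a group, precision is limited by their number.

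Of 6 root markers, the root hair genes rth1 and rth3 were well above background on all 18 arrays. The nitrate transporters nrt2.2 and nrt2.1 were so on 17 and 16, rtcs on 14 and bx1 on 4. Of 5 leaf markers, PPDK was well above background on all 18 arrays and 1 of the rbcS transcripts on 16, while the C4 forms of PEPC and NADP-ME were so on 3 arrays each and the other rbcS on 1. The summed level of the leaf markers lay between -2.01 and 3.64 at 0 d in Lo5 and between 0.518 and 1.48 at 4 d, and in T250 between 3.08 and 3.66 at 0 d and between 2.78 and 4.20 at 4 d. The summed root markers ranged from 3.18 to 5.28 in Lo5 and from 3.24 to 4.04 in T250. The leaf sum was thus lower and the root sum higher in Lo5 than in T250 at 4 d, on every array. At 1 d the leaf sums overlapped, at 2.07 to 4.43 in Lo5 and 2.18 to 4.27 in T250. The median level over the arrays was 3.10 for PPDK and -3.93 for the next leaf marker, so the leaf sum rests mostly on PPDK. The part of these sums in the results on the lines was not tested.

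All 4 transcripts were well above background on all 18 arrays, but their signals differed. The processed intensity of the MYB112 homologue ran from 372 to 4314 units, that of the NAC transcript from 171 to 1254 and that of NAC47 from 68.8 to 829. The TCP transcript stayed between 8.17 and 49.3 units. On its dimmest array it was 1.57 times as bright as the dimmest probe well above background there, against at least 10 times for each of the others.

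**Figure D1:**
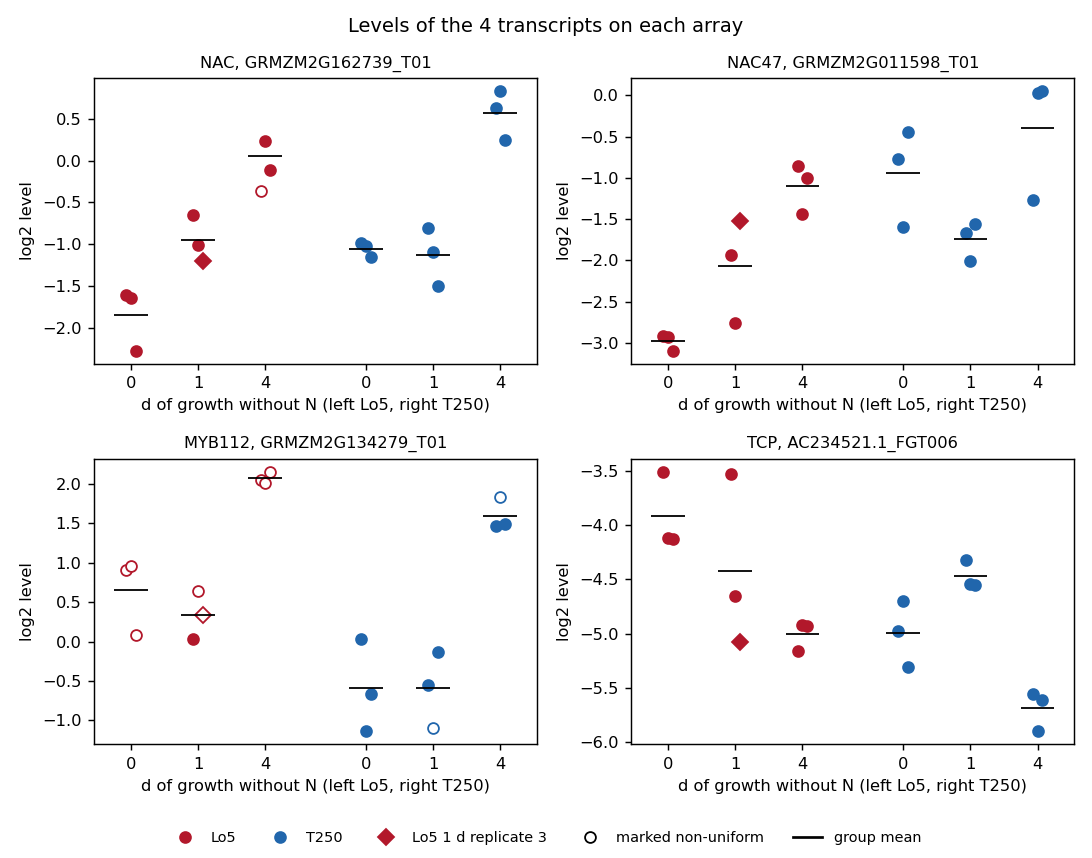
Level of each of the 4 transcripts (y axis, log2 with each array's 75th percentile at 0) on each of the 18 arrays, by d of growth without N and line. Each point is 1 array, open points are marked spots, the diamond is the array labelled Lo5 1 d replicate 3 and bars are the means of the values used in the text. The NAC transcript, NAC47 and the MYB112 homologue have their highest mean at 4 d in both lines and the TCP transcript its lowest, which in T250 turned to a value above 0 d under normexp (1.12).

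The NAC transcript GRMZM2G162739_T01, which RefSeq lists under the name NAC5, was low in Lo5 at the start and higher on both later days. In Lo5 its level was -1.60, -1.64 and -2.27 at 0 d on replicates 1, 2 and 3. At 1 d it was -0.65, -1.01 and -1.20, and at 4 d 0.23 and -0.11 on replicates 2 and 3, with a marked spot of -0.37 on replicate 1. The 3 days did not overlap in Lo5, and the 1 d arrays lay between the other two.

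In T250 the same NAC transcript was no higher after the first day than at the start. Its level was -0.98, -1.02 and -1.15 at 0 d, -0.81, -1.09 and -1.49 at 1 d, and 0.63, 0.82 and 0.24 at 4 d. The 0 d and 1 d arrays overlapped and all 4 d arrays lay above them. From 0 d to 4 d, the comparison that chose it, the mean went from -1.84 ± 0.37 (SD, n = 3) to 0.06 ± 0.24 (SD, n = 2) in Lo5, a log2 ratio of 1.89, and from -1.05 ± 0.09 to 0.56 ± 0.30 in T250 (SD, n = 3 each), a log2 ratio of 1.62.

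Over the first day the log2 ratio of the NAC transcript was 0.88 in Lo5 (SE 0.26, 95% interval 0.32 to 1.45, 1.85-fold). Its adjusted p in limma was 0.952, with an unadjusted p of 0.0049, so it was not called. With the replicate number as a block the SE was 0.19, with an unadjusted p of 0.00062 and an adjusted p of 0.891 in limma, again not called. With the array labelled Lo5 1 d replicate 3 left out, the ratio was 1.01. On the 3 slides that hold a 0 d and a 1 d array of Lo5 the differences were 0.95, 0.63 and 1.07, all upward. The last of these holds the array that goes against its label. In T250 the log2 ratio was -0.08 (95% interval -0.64 to 0.49, adjusted p in limma 1.00), and within slides it was 0.18, -0.07 and -0.34. The difference between the lines in this first change was 0.96 (SE 0.37, adjusted p in limma 0.971, unadjusted p of 0.0218), or 1.09 without the array that goes against its label, and was not called. With the block it had an SE of 0.27, an unadjusted p of 0.0039 and an adjusted p of 0.883 in limma.

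NAC47, GRMZM2G011598_T01, showed the widest gap of the 4 between the lines at 0 d, and a narrower one on the later days. In Lo5 the level was -2.92, -2.93 and -3.09 at 0 d, a span narrower than that of any other transcript of the 4 in Lo5 at that time. It was -1.93, -2.76 and -1.52 at 1 d and -0.85, -1.44 and -1.0 at 4 d. The days did not overlap in Lo5, with the highest 1 d value, -1.52, from the array that goes against its label.

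In T250 NAC47 had its lowest mean at 1 d. Its level was -0.77, -1.59 and -0.45 at 0 d, -1.67, -2.00 and -1.56 at 1 d, and -1.26, 0.03 and 0.05 at 4 d. Every 1 d array lay below the 0 d mean, although replicate 3 at 1 d lay above replicate 2 at 0 d, and the 4 d arrays overlapped with those of 0 d. Means from 0 d to 4 d went from -2.98 ± 0.10 to -1.10 ± 0.30 in Lo5, a log2 ratio of 1.88, and from -0.94 ± 0.59 to -0.40 ± 0.75 in T250, a log2 ratio of 0.54 (SD, n = 3 each). This last value lies outside the log2 ratio of 1 that the choice of members used, and the line difference it implies is part of the choice.

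At 0 d NAC47 was 4.12-fold lower in Lo5 than in T250, a log2 difference of -2.04 (SE 0.40, 95% interval -2.90 to -1.19, adjusted p in limma 0.00501), and no Lo5 array reached a T250 array. Of 30061 transcripts tested in that comparison 4160 were called (13.8%), so calls between the lines at 0 d were common, and the 0 d arrays had also taken part in the choice of the transcript. On the only slide that holds both lines at 0 d the difference was -2.15. At 1 d the difference of NAC47 was -0.33 (95% interval -1.18 to 0.52, adjusted p in limma 0.717), or -0.60 with the array that goes against its label left out. At 4 d the means differed by -0.70. Normexp background correction ended the call at 0 d (-1.42, adjusted p in limma 0.106).

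The first-day ratios of NAC47 had opposite signs in the lines, and neither was called. In Lo5 the log2 ratio was 0.91 (SE 0.40, 95% interval 0.06 to 1.76, unadjusted p of 0.0378 and adjusted p of 0.952 in limma), and within slides it was 0.99, 0.17 and 1.57. In T250 it was -0.81 (SE 0.40, 95% interval -1.66 to 0.04, adjusted p in limma 0.810), and within slides -0.90, -0.41 and -1.11. The 1 d array was thus the higher of the pair on all 3 slides in Lo5 and the lower on all 3 in T250. The highest Lo5 pair, 1.57, holds the array that goes against its label. Without that array the Lo5 ratio was 0.64 (95% interval -0.28 to 1.55, unadjusted p in limma 0.157). The difference between the lines was 1.72 (SE 0.56, 95% interval 0.51 to 2.92), with an unadjusted p of 0.0084 and an adjusted p of 0.971 in limma, or 1.44 once the array labelled Lo5 1 d replicate 3 was left out. It was not called.

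**Figure D2:**
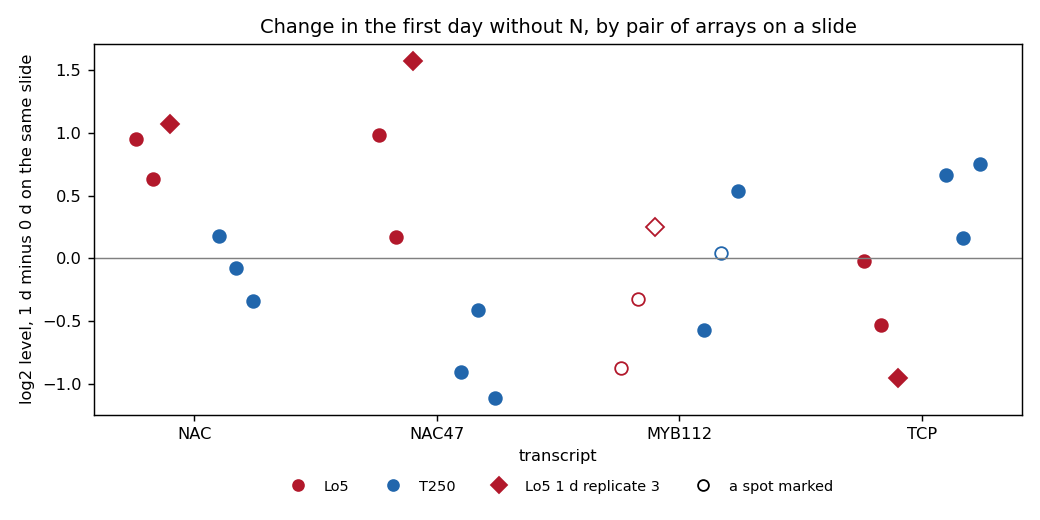
Difference in level between the 1 d and the 0 d array of a line on the same slide (y axis, log2), for each transcript and replicate number. Open points involve a marked spot and the diamond is the pair with the array labelled Lo5 1 d replicate 3. For NAC47 the Lo5 pairs sit between 0.17 and 1.57 and the T250 pairs between -1.11 and -0.41, and for the TCP transcript the Lo5 pairs lie at or below -0.02 and the T250 pairs at or above 0.16.

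The MYB112 homologue GRMZM2G134279_T01 stood apart from its earlier levels at 4 d in both lines. In Lo5 its level was 0.90, 0.96 and 0.09 at 0 d, 0.04, 0.64 and 0.34 at 1 d, and 2.05, 2.01 and 2.16 at 4 d. All of these spots except replicate 1 at 1 d were marked. The 0 d and 1 d arrays overlapped and the 4 d arrays lay more than a log2 unit above both.

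In T250 its level was 0.03, -1.13 and -0.66 at 0 d, -0.54, -1.09 and -0.13 at 1 d, and 1.47, 1.84 and 1.50 at 4 d, with a mark on replicate 2 at 1 d and at 4 d. Here too the first 2 sampling times overlapped and the last stood apart. The means from 0 d to 4 d were 0.65 ± 0.49 and 2.07 ± 0.08 in Lo5, a log2 ratio of 1.42, and -0.59 ± 0.58 and 1.60 ± 0.21 in T250, a log2 ratio of 2.19 (SD, n = 3 each). From 1 d to 4 d the ratio was 1.73 in Lo5 and 2.19 in T250, the latter 1.82 with marked spots left out.

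Over the first day the MYB112 homologue had a log2 ratio of -0.31 in Lo5 (95% interval -1.02 to 0.40, adjusted p in limma 0.937) and of 0.00 in T250 (95% interval -0.71 to 0.71, adjusted p in limma 1.00). Pairs on a slide gave -0.87, -0.32 and 0.25 in Lo5 and -0.57, 0.04 and 0.53 in T250. The difference between the lines was -0.31 (95% interval -1.32 to 0.69, adjusted p in limma 0.982). The Lo5 ratio and this difference were -0.31 also with the array that goes against its label left out. Each interval spans 0.

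Between the lines the MYB112 homologue was higher in Lo5 at 0 d, by 1.24 (SE 0.33, 95% interval 0.53 to 1.95, 2.36-fold, adjusted p in limma 0.0201). With marked spots kept 15.2% of the transcripts were called in that comparison. All 3 Lo5 spots behind this value are marked, so with marked spots left out it has no value, and it lost the call when any of 4 of the 6 arrays was left out, with adjusted p between 0.0599 and 0.0901 in limma, and with the slide as a block (1.11, adjusted p in limma 0.0679). On the slide that holds both lines the difference was 0.88. At 1 d the difference was 0.93 (SE 0.33, adjusted p in limma 0.119, unadjusted p of 0.0142), and 0.93 again with the array that goes against its label left out. With marked spots left out, which leaves 1 Lo5 spot at 1 d, it was 0.37 (adjusted p in limma 0.776). With all spots the 1 d arrays did not overlap between the lines, nor did those of 4 d, where the means differed by 0.47.

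The TCP transcript AC234521.1_FGT006 was the dimmest of the 4 probes and the only one that was lower at 4 d than at 0 d. In Lo5 its level was -3.50, -4.12 and -4.13 at 0 d, -3.53, -4.65 and -5.08 at 1 d, and -5.16, -4.92 and -4.93 at 4 d. The 4 d arrays lay below all 0 d arrays. The 1 d arrays spanned the range of both, with the lowest value, -5.08, on the array that goes against its label.

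In T250 the TCP transcript was -4.98, -4.70 and -5.30 at 0 d, -4.32, -4.54 and -4.55 at 1 d, and -5.56, -5.90 and -5.61 at 4 d. The 3 times did not overlap, with 1 d above 0 d and 4 d below it. The means from 0 d to 4 d went from -3.92 ± 0.36 to -5.00 ± 0.14 in Lo5, a log2 ratio of -1.09, and from -4.99 ± 0.30 to -5.69 ± 0.18 in T250, a log2 ratio of -0.69 (SD, n = 3 each). The Lo5 value is the closest of the 4 transcripts to the inside of the log2 limit of 1, and the T250 value is outside it. Normexp background correction turned the T250 value to 1.12, so its direction depends on the background correction.

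Over the first day the TCP transcript had a log2 ratio of -0.50 in Lo5 (SE 0.33, 95% interval -1.20 to 0.20, adjusted p in limma 0.952), or -0.17 with the array that goes against its label left out and 0.46 under normexp. Pairs on a slide gave -0.02, -0.53 and -0.95, the last with the array that goes against its label. In T250 the ratio was 0.53 (95% interval -0.18 to 1.23, adjusted p in limma 0.907), with 0.66, 0.16 and 0.75 on the slides. The difference between the lines was -1.03 (SE 0.46, unadjusted p of 0.0436, adjusted p in limma 0.971), and -0.70 without that array.

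At 0 d the TCP transcript was 2.11-fold higher in Lo5 than in T250, a log2 difference of 1.08 (SE 0.33, 95% interval 0.38 to 1.78, adjusted p in limma 0.0400), with no overlap between the lines and 1.47 on the slide that holds both. In that comparison 13.8% of all transcripts were called. The 0 d arrays had also taken part in its choice, and a transcript chosen as falling in Lo5 is favoured to be high there at 0 d. The call was lost when any 1 of the 6 arrays at 0 d was left out, with adjusted p between 0.0531 and 0.147 in limma, and under normexp (0.41, adjusted p in limma 1.00). At 1 d the lines differed by 0.05 (95% interval -0.65 to 0.75, adjusted p in limma 0.955), or by 0.38 with the array that goes against its label left out. At 4 d the means differed by 0.69, and the arrays of the lines did not overlap.

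**Figure D3:**
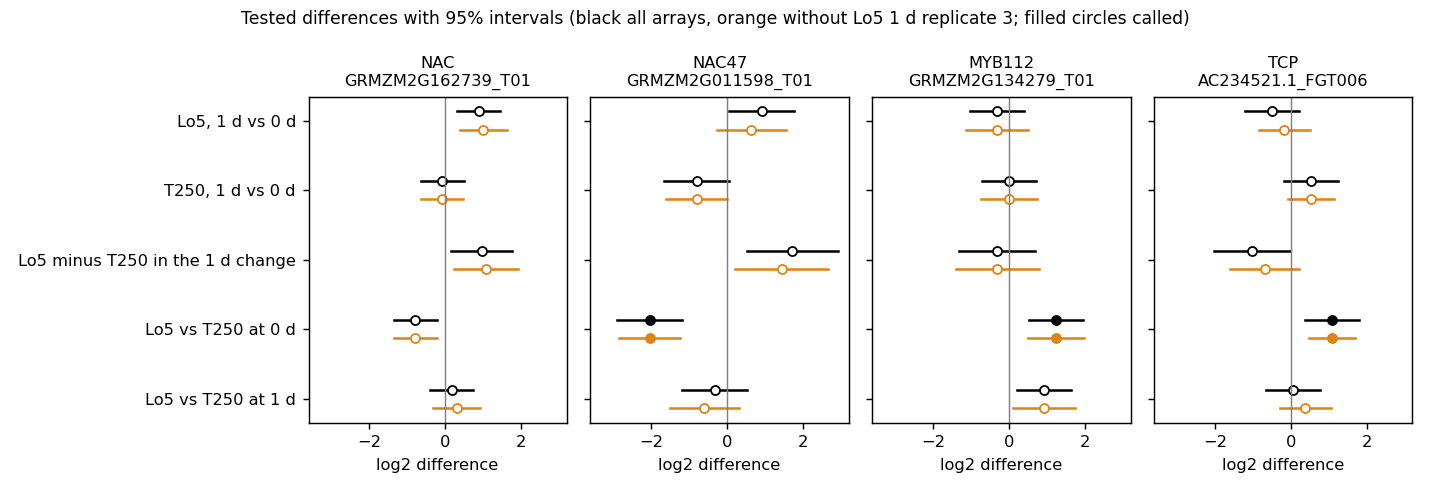
Log2 differences of the 5 tested comparisons (rows) for each transcript (columns of panels), with 95% intervals from limma, for all arrays (black) or with Lo5 1 d replicate 3 left out (orange). Filled circles are called, and the only filled ones are NAC47 at -2.04, the MYB112 homologue at 1.24 and the TCP transcript at 1.08 in the comparison of the lines at 0 d, the same values in both colours.

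Across the 5 tested comparisons, calls among the 4 transcripts were thus limited to the lines at 0 d, where 3 of 4 were called and the NAC transcript, at -0.79 (SE 0.26, adjusted p in limma 0.0623, and -0.62 on the slide that holds both lines), was not. There 13.8% of all transcripts were called (15.2% with marked spots kept), and the 0 d arrays had taken part in the choice of the 4. At 1 d between the lines 0 of 4 were called, where 4.28% of all transcripts were (4.32% with marked spots kept). On that day 1 of the 4, the MYB112 homologue, had an unadjusted p under 0.05 in limma, as did 20.2% of all transcripts (21.1% with marked spots kept). That day holds the array that goes against its label, without which 5075 transcripts in place of 1304 were called over the array and still 0 of the 4.

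In the first-day comparisons few transcripts of the array were called at all. In Lo5 3 of 30635 were called (0.00979%) and with marked spots kept 0 of 31653 (0%). Of these 31653, 1356 (4.28%) reached an unadjusted p of 0.05 in limma. In T250 the shares were 0.00999% and, with marked spots kept, 0.00632%. For the difference between the lines they were 0.0169% and, with marked spots kept, 0%, where 1714 (5.41%) reached an unadjusted p of 0.05 in limma. With the array labelled Lo5 1 d replicate 3 left out, 0 transcripts were called in Lo5 and 12 in T250, in place of 3 each, and 5 for the difference between the lines. With the replicate number as a block 1, 2 and 2 were called. A count of 0 among 4 transcripts reads against these shares.

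The order of the groups is by their means and, like the overlap between the arrays of neighbours, is given without a test. For the NAC transcript it ran from T250 at 4 d through Lo5 at 4 d, Lo5 at 1 d, T250 at 0 d and T250 at 1 d down to Lo5 at 0 d, and the Lo5 1 d, T250 0 d and T250 1 d arrays overlapped. For NAC47 it ran from T250 at 4 d through T250 at 0 d, Lo5 at 4 d, T250 at 1 d and Lo5 at 1 d down to Lo5 at 0 d, and T250 at 0 d overlapped with both of its neighbours, as T250 and Lo5 at 1 d did with each other. Only Lo5 at 0 d stood below all other groups for both NAC transcripts.

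For the MYB112 homologue both 4 d groups came first, Lo5 above T250, followed by Lo5 at 0 d and 1 d, which overlapped, and T250 at 1 d and 0 d, which overlapped. For the TCP transcript Lo5 at 0 d came first and T250 at 4 d last. Lo5 at 0 d overlapped with the next group, Lo5 at 1 d. Lo5 and T250 at 1 d overlapped with each other, and so did T250 at 0 d and Lo5 at 4 d, whose means were -4.99 and -5.00.

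A second TCP transcript, GRMZM2G120151_T01, is the one the study names for T250, where its 4 d arrays are what chose it. It was not well above background on 8 of the 9 Lo5 arrays, with levels from -8.74 to -7.70. The exception was the array labelled Lo5 1 d replicate 3, at -5.74. In T250 it was -6.30, -6.30 and -6.00 at 0 d and -4.96, -4.89 and -4.64 at 4 d, while replicate 1 at 0 d and all 1 d arrays were not well above background. At 4 d it was at least 4.01-fold brighter in T250 than the detection limit of the Lo5 arrays, while AC234521.1_FGT006 at 4 d was the higher in Lo5.

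The study's lists of modulated transcripts also hold transcripts with the same description as a member. They were looked at after their values had been seen and are given without a test. Such lists hold only transcripts with a change from 0 d in at least 1 line and day. A change of these transcripts was thus part of how they were found. GRMZM2G070849_T01, like the member described as a MYB112, had levels of 1.72, 2.00 and 0.90 at 0 d, 1.49, 1.26 and 0.25 at 1 d and 2.39, 2.79 and 2.70 at 4 d in Lo5. In T250 it had 0.27, -0.81 and 0.12 at 0 d, -0.40, -1.01 and -0.06 at 1 d and 1.83, 1.71 and 2.08 at 4 d. Its log2 ratios from 0 d to 4 d were 1.09 in Lo5 and 2.01 in T250, and its order of groups was that of the MYB112 homologue except for the place of the 0 d and 1 d arrays of T250, all with marked spots kept. Whether the probes of the pair share target sequence was not tested.

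GRMZM2G430849_T01, described as a NAC47 as well, had other levels than the member, all given with marked spots kept. In Lo5 it went from 0.44, 0.48 and -0.17 at 0 d to -0.80, -0.77 and -0.30 at 1 d and 1.55, 1.34 and 0.80 at 4 d. The log2 ratio of the first day was -0.88, or -1.04 with the array that goes against its label left out, where that of the member was 0.91 and 0.64. In T250 it went from 0.48, -0.05 and -0.37 through 0.08, -0.32 and -0.42 to 1.54, 1.59 and 1.16. At 0 d the lines differed by 0.23, where the member differed by -2.04, and the ratios from 0 d to 4 d were 0.98 in Lo5 and 1.41 in T250.

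**Figure D4:**
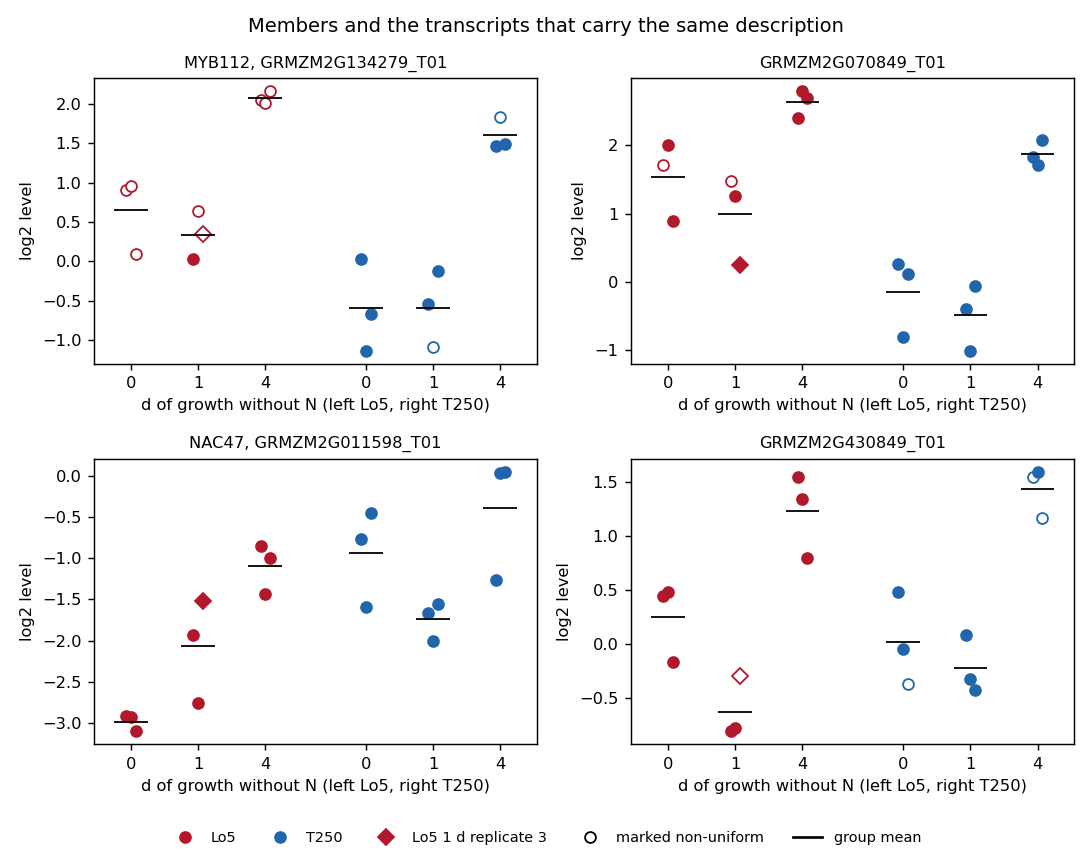
Levels (y axis, log2 with each array's 75th percentile at 0) of the MYB112 homologue and NAC47 (left) beside the transcripts with the same description (right), by d of growth without N and line, with 1 point per array, open points for marked spots, a diamond for the array labelled Lo5 1 d replicate 3 and bars for means. The transcripts on the right were found in the study's lists of modulated transcripts. The upper pair has its highest values at 4 d in both lines, while in the lower pair GRMZM2G430849_T01 has its lowest Lo5 mean at 1 d and NAC47 at 0 d.

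Profiles nearest to each member were sought over all 18 arrays among 24663 other transcripts well above background on every one of them, as the smallest root mean square difference between levels centred on each transcript's own mean. For the MYB112 homologue these were GRMZM2G144155_T01, listed by RefSeq as ERD3, at 0.35, then GRMZM2G070849_T01 with the same description at 0.40 and GRMZM2G017792_T01 at 0.42, against a median of 1.22 over all transcripts compared. For the NAC transcript they were GRMZM2G009103_T01 at 0.36, GRMZM2G143204_T01, listed as WRKY30 and so of another family of transcription factors, at 0.40, and GRMZM2G165778_T01 at 0.41, against a median of 1.01. The same 3 were nearest to each of these members, and to NAC47, with the array labelled Lo5 1 d replicate 3 left out. This is a description over arrays that share line and day, and nothing about their function was tested.

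The nearest profiles of NAC47 were less close, GRMZM2G178247_T01 at 0.41, GRMZM2G167492_T01 at 0.48 and GRMZM2G336680_T01 at 0.48, against a median of 1.1. For the TCP transcript they were GRMZM2G476000_T01, a homologue of a calcium ATPase of Arabidopsis, at 0.29, GRMZM2G049781_T01 at 0.31 and AC195230.2_FGT003 at 0.33, against a median of 0.80. With the array that goes against its label left out GRMZM2G126196_T01, at 0.28, came before the first of these and AC195230.2_FGT003 was no longer among the nearest 3. Among the members themselves the NAC transcript and NAC47 were the closest pair, at 0.67, and NAC47 and the TCP transcript the most distant, at 1.51.

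Members apart, transcripts of the 3 families were counted from lists made by RefSeq name. These lists are incomplete and do not stand for whole families. They lack NAC47, the MYB112 homologue and the TCP transcript among the members, and also GRMZM2G070849_T01, GRMZM2G430849_T01 and GRMZM2G120151_T01. For these counts a transcript passed when limma's unadjusted p was 0.01 or less and the ratio reached 1 log2 unit, the limits that the methods of the study set. From 0 d to 4 d in Lo5 0 of 23 NAC, 2 of 53 MYB and 0 of 7 TCP transcripts passed, where 1.69% of all transcripts did. Both MYB transcripts were higher at 4 d, GRMZM2G001824_T01 (MYB134) by 1.61 and GRMZM2G415077_T01 (MYBR45) by 1.30. With the array labelled Lo5 1 d replicate 3 left out, the counts were 1, 1 and 0.

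In T250 from 0 d to 4 d 1 of 23 NAC, 4 of 53 MYB and 1 of 7 TCP transcripts passed, where 3.9% of all did. Up were GRMZM2G056407_T01 (Myb36) by 2.74, GRMZM2G115070_T01 (MYBR95) by 1.59, GRMZM2G130149_T01 (MYB59) by 1.33 and GRMZM2G166946_T01 (TCP30) by 1.19. Down were GRMZM2G079458_T01 (MYBR21), at -1.97, and GRMZM2G069047_T01 (NAC115), which was at least 4.37-fold lower at 4 d, when none of its spots was well above background. With the array labelled Lo5 1 d replicate 3 left out, the counts were 1, 2 and 1. These transcripts were named because they passed, after their values had been seen.

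Over the first day 1 of 23 NAC transcripts passed in Lo5, GRMZM2G014653_T01 (NAC1) at -1.14, where 0.62% of all transcripts passed. That value rests on 1 spot at 1 d, -2.50 on the array that goes against its label, beside -2.62 to -2.31 on the T250 1 d arrays. With that array left out 0 of 22 NAC transcripts passed, as did 0 of 24 with marked spots kept and 0 with the replicate number as a block. Of 53 MYB and 7 TCP transcripts 0 passed, with or without that array, while 1 MYB transcript passed with the block. In T250 1 of 53 MYB transcripts passed, MYBR21 at -2.31, and 0 of 23 NAC and 0 of 6 TCP transcripts, where 1.38% of all did. After Benjamini-Hochberg adjustment limma called 0 transcripts of these 3 lists over the first day or from 0 d to 4 d. At an unadjusted p of up to 0.05 in limma, whatever the size, 4.11% of all transcripts stood over the first day and 7.58% from 0 d to 4 d in Lo5, and 6.29% and 13.2% in T250. The NAC list had 2 of 23 over the first day and 11 of 23 from 0 d to 4 d in Lo5, and 1 and 5 of 23 in T250. These 11 went in both directions. Those lower at 4 d had log2 ratios of -0.88, -0.81, -0.74 and -0.62, and the others were higher. Some transcripts of the NAC list share a gene in RefSeq, so the counts are not of separate genes. The MYB list had 5 and 6 of 53 in Lo5 and 6 and 12 of 53 in T250, and the TCP list 1 of 7 from 0 d to 4 d in each line and none over the first day.

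The median log2 ratio from 0 d to 4 d was 0.25 over the NAC list in Lo5 and 0.38 in T250, with 14 and 17 of 23 above 0. Over all transcripts tested it was -0.10 and -0.05, with 41.3% and 46.5% above 0. The MYB list had medians of 0.09 and -0.01 and the TCP list of 0.20 and 0.22. The members are not in these counts.

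**Figure D5:**
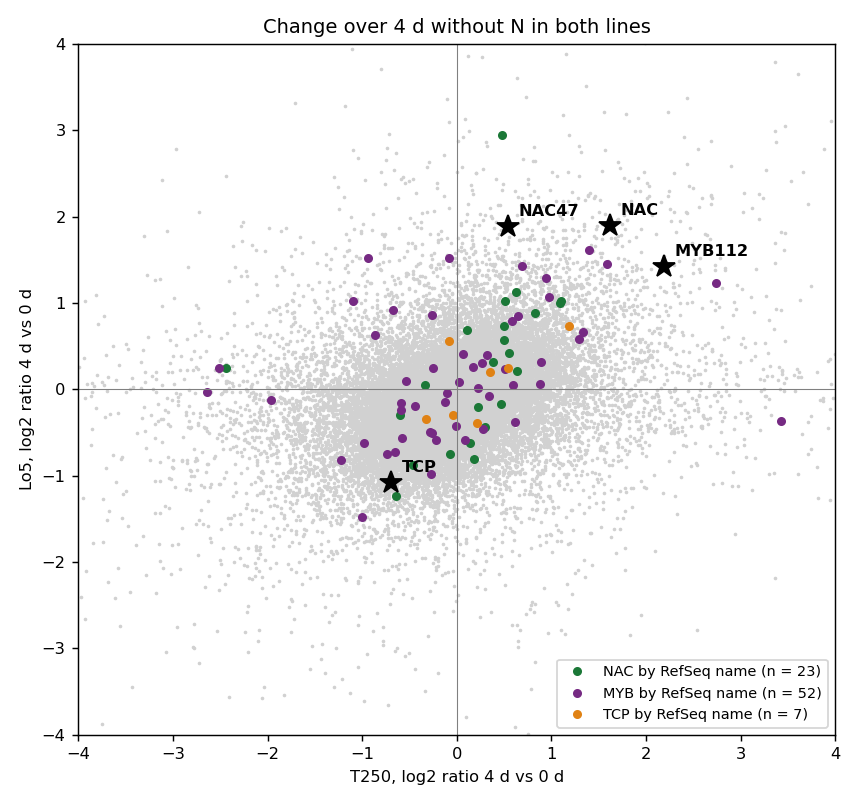
Log2 ratio from 0 d to 4 d without N in T250 (x axis) and Lo5 (y axis). Grey points are all transcripts with a value in both lines, of which 138 of 29809 lie outside the axes, coloured points are the NAC, MYB and TCP transcripts by RefSeq name and stars are the 4 members, which were chosen on these values. The NAC transcript lies at 1.62 and 1.89, NAC47 at 0.54 and 1.88, the MYB112 homologue at 2.19 and 1.42 and the TCP transcript at -0.69 and -1.09.

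Among 10 transcripts for nitrate transport and assimilation on the array (the transporters nrt2.1 and nrt2.2, the nitrate reductase NNR1, the regulator NLP8 and the glutamine synthetases), 0 of 9 tested passed in Lo5 on either day, where 0.62% of all transcripts passed over the first day and 1.69% from 0 d to 4 d. In T250 2 of 8 passed from 0 d to 4 d, where 3.9% of all did, and both were lower at 4 d. This list was also made by RefSeq name and is incomplete. It lacks the nitrate transporter transcript GRMZM2G044851_T01. The study reports that transcript as higher in T250 on both later days. The counts thus do not stand for nitrate transport as a whole. The level of GRMZM2G010280_T01 (nrt2.1) in T250 was -1.72, -1.97 and -1.19 at 0 d and -8.44, -6.61 and -3.67 at 4 d, with 1 of the 3 spots at 4 d well above background. That of GRMZM2G010251_T01 (nrt2.2) was 1.52, 1.92 and -0.41 at 0 d and -8.35, -5.61 and -3.77 at 4 d, with 2 of the 3 well above background, so no fold is given for either.

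In Lo5 nrt2.2 did not pass but its arrays did not overlap either, at 0.81, 2.93 and 1.39 at 0 d, of which 2 spots are marked, and -1.88, -1.37 and -1.96 at 4 d. The fitted log2 ratio, on the only unmarked 0 d spot, was -3.13. In Lo5 nrt2.1 was -0.74, -0.05 and -1.29 at 0 d and 0.55, -0.88 and -0.49 at 4 d, which overlap. Over 11 alternatives the number of nitrate transcripts that passed from 0 d to 4 d ran from 0 to 2 in each line. The difference between the lines in these changes was not tested.

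Over the first day 1 of 8 passed in T250, NNR1 (GRMZM2G568636_T01) at -1.08, where 1.38% of all did, and 0 with the replicate number as a block or, of 9, with marked spots kept. After adjustment limma called 0 of the nitrate transcripts over the first day. From 0 d to 4 d it called 0 in Lo5 and 0 in T250, and in T250 1 with the array labelled Lo5 1 d replicate 3 left out, 1 with marked spots kept and 2 with both. At an unadjusted p of up to 0.05 there were 0 and 1 of 9 in Lo5 and 1 and 2 of 8 in T250 at 1 d and 4 d, beside the shares of all transcripts given above.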

How the data were processed

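Labelled cRNA from the roots of 18 samples was read with custom 1-colour Agilent arrays. Per the labels the images were read with Agilent Feature Extraction 10.5.1.1. The authors deposited for each array the processed intensity of each spot, corrected for background and detrended, with marks for spot quality. A table of the whole series, also deposited as intensity, holds these signals after the authors multiplied each array by 1 factor, and served as an alternative.

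The log2 level was computed as given in the report. Probes that no group had well above background on each of its 3 arrays were dropped, which left 31653. R 4.3.3 (limma 3.58.1, with the package data.table at version 1.17.8) fitted the 6 groups together, and a comparison used probes with at least 1 spot in each of its groups and a residual spread. Python 3.11.15 with numpy 2.4.6, pandas 2.3.3, scipy 1.17.1 and matplotlib 3.10.9 gave tables and plots. With 3 arrays against 3 an exact permutation test cannot go below 0.1, so none was run. When 200 of 31653 simulated transcripts of T250 were given a change of 2 log2 units between 0 d and 1 d, limma called 100 of these and 1 other.

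The labels give replicate numbers, which the study's methods let stand for growth experiments. Deviations from the group means of the 6 same-numbered pairs of 0 d and 1 d arrays within a line correlated at 0.10 to 0.36, all over 0.1. The 12 different-numbered pairs ran from -0.30 to 0.16, with 1 over 0.1. That 1 was in Lo5, where the same-numbered pairs gave 0.30, 0.13 and 0.10, the last with the array that goes against its label. The numbers were taken to pair the samples in the first-day comparisons, on weaker ground in Lo5. That pairing entered the differences within slides and the alternative with the replicate number as a block. The first-day intervals and p are from the fit without a block, unless the block is named. These same-numbered pairs also share a slide, so growth experiment and slide cannot be told apart there. Over all groups 12 of 45 same-numbered pairs were over 0.1 and the lowest was -0.31, and the numbers were not taken to pair other groups. The 5 slides come from the file headers. Slide 4 was scanned on another day than the rest. It holds replicate 1 of both lines at 0 d and 1 d, no 4 d array, and is the slide that holds both lines at 0 d.

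The members, family lists and tests were chosen with earlier results of these data known. Transcripts named are the 4 members, the TCP transcript the study names for T250, the 3 nearest profiles of each member, and those said to be chosen after their values were seen. Family members were found by RefSeq symbol or synonym of the Zm-B73-REFERENCE-NAM-5.0 assembly (18727 of 39372 transcripts matched). The array follows an older annotation, so no position is given. Relatives by protein sequence and promoter motifs had been planned and were not analysed here, since no sequences were used.

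Alternatives were quantile normalization, normexp on the median signals with an offset of 50, marked spots kept, the authors' values, dropping the filter on dim probes, keeping only probes bright on each of the 18 arrays, the groups compared only, the methods' t-test, the replicate number or the slide as a block, and leaving out each array. Reporting GRMZM2G134279_T01 with marked spots kept, the differences within slides and nearest profiles with 1 array left out were chosen after seeing the data.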

Additional observations from a re-analysis of the deposited data

Results flagged for a closer look

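The first-day change of NAC47 (GRMZM2G011598_T01) is listed because every 1 d array of Lo5 lay above the Lo5 mean at 0 d, while every 1 d array of T250 lay below the T250 mean at 0 d. The difference between the lines in this change was 1.72 (log2), upward in 3 of 3 slide pairs of Lo5 and downward in 3 of 3 of T250. The highest Lo5 pair, 1.57, holds the array that goes against its label, and without that array the Lo5 ratio was 0.64 and the difference 1.44. Tested itself, it had an adjusted p of 0.971 in limma and did not pass the threshold, and the adjusted p ranged from 0.310 to 1.00 over the alternatives. The 0 d arrays took part in the choice of NAC47, which favours a low Lo5 level at 0 d. Groups of 3 arrays were not searched for outliers.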

How the results depend on the processing

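Each tested comparison of a member was recomputed under the alternatives, and 319 values kept their direction and their side of the threshold, 18 lost a call and 12 reversed. None of the 12 belonged to a call. Normexp on the median signals gave the NAC transcript 0.015 in T250 at 1 d, NAC47 0.092 between the lines at 1 d and the TCP transcript 0.46 in Lo5 at 1 d, and quantile normalization gave the MYB112 homologue -0.014 in T250 at 1 d. Leaving out single arrays gave the NAC transcript -0.24 to 0.10 in T250 at 1 d and -0.0038 to 0.34 between the lines at 1 d, NAC47 -0.60 to 0.016 and the TCP transcript -0.39 to 0.38 between the lines at 1 d, and the MYB112 homologue -0.27 to 0.31 in T250 at 1 d. The cause was not tested.

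The call of NAC47 at 0 d was lost under normexp (-1.42, adjusted p in limma 0.106) and kept under every other alternative. The call of the MYB112 homologue at 0 d was lost with the groups compared only (1.24, adjusted p 0.0920), with the methods' t-test after adjustment (1.24, 0.188), with the slide as a block (1.11, 0.0679) and without any of 4 of the 6 arrays (0.97 to 1.55 over all 6). That of the TCP transcript was lost under normexp (0.41, adjusted p 1.00), with no filter on dim probes (1.08, 0.0546), with the groups compared only (1.08, 0.0602), with the methods' t-test (1.08, 0.0982) and without any 1 of the 6 arrays at 0 d (0.87 to 1.22). A p that misses the threshold in so few arrays does not show that the lines did not differ.

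Of the values from 0 d to 4 d, normexp moved the NAC transcript to 1.42 in Lo5 and 1.34 in T250, NAC47 to 1.18 in Lo5 and the TCP transcript to -0.65 in Lo5, and turned the TCP transcript in T250 to 1.12, a direction also weakened to -0.28 with the slide as a block. With the replicate number as a block NAC47 at 0 d kept its call (-2.04, adjusted p in limma 0.00541), and the block changed no other call of a member. Over 11 alternatives the MYB counts from 0 d to 4 d ran from 1 to 6 in Lo5 and from 0 to 5 in T250. The NAC, TCP and nitrate counts stayed between 0 and 2.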
